A study of Mus musculus with 3 samples.

Results

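DNA replication genes were followed through 3 mouse muscle stem cell (MuSC) expression arrays. The 32 genes were listed by name for their place in the replication machinery, and not by a cut on their signals, out of 18193 genes that had a probe set of their own. They comprise 11 genes of helicase loading and the helicase (Cdc6, Cdt1, Mcm2, Mcm3, Mcm4, Mcm5, Mcm6, Mcm7, Mcm10, Gins1, Gins2), 6 of the polymerases and primase (Pola1, Pola2, Prim1, Prim2, Pold1, Pole), 6 of the sliding clamp and its loader (Pcna, Rfc1, Rfc2, Rfc3, Rfc4, Rfc5), 4 of nucleotide supply (Rrm1, Rrm2, Tyms, Tk1), and 5 of single-strand binding and strand maturation (Rpa1, Rpa2, Rpa3, Fen1, Lig1). All 32 were on the array. The MuSC came from muscle of wildtype C57BL/6 mice aged 8 weeks and were sorted as CD34+ α7 integrin+ cells. RNA was taken directly after isolation (fresh MuSC), after 3 days of culture in 10% FBS (MuSC -OSM), or after 3 days in 10% FBS with the cytokine oncostatin M at 100 ng/mL (MuSC +OSM). Fresh cells had been through enzymatic digestion of the muscle and sorting, and the number of mice behind an array is not given in the labels. The question was how MuSC treated with oncostatin M (OSM), a secreted cytokine of the interleukin-6 family, compare with fresh and with untreated cultured cells. Each condition was 1 array, so no difference below has a replicate check, and no test, error or p-value can be given.

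Replication starts when the origin recognition complex, with CDC6 and CDT1, loads the MCM ring onto DNA. The GINS complex and CDC45 join the ring to form the active helicase, DNA polymerase α with primase lays down primers, and polymerases δ and ε extend them while held by the PCNA clamp, which the RFC complex loads. Muscle stem cells of resting adult muscle are quiescent, and they enter the cell cycle after injury or when placed in culture. Many genes of this machinery are known targets of E2F transcription factors, which act as cells pass from G1 into S phase.

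Signals are linear intensities in arbitrary units, and a gene's signal is that of its probe set with the highest mean over the 3 arrays. Signals under 40, the median of all signals, were raised to 40 before a ratio was taken. A gene counted as measured in a comparison when at least 1 of the 2 arrays was above 40, and a ratio with an array under 40 is given as a bound. Levels of different genes were not set against each other, since probe sets differ in brightness. RNA quality differed between the arrays. The β-actin 3′ to 5′ signal ratio was 2.35, 1.40 and 1.41 on the fresh, -OSM and +OSM arrays. That of Gapdh was 1.36, 1.14 and 0.90. Of the MuSC markers, 8, 7 and 7 of 8 were above 40 on the fresh, -OSM and +OSM arrays, and Pax7 read 4006, 282 and 431. Cd34, a gene of the sorting gate, was at 34 and 15, under the floor, on the cultured arrays. Of 11 markers of leukocytes, endothelium, fibroblasts and smooth muscle, 7, 2 and 5 were above 40, and no Schwann cell marker was measured. Their summed signals were 21971, 19262 and 13831, of which Acta2 of smooth muscle gave 6543, 19053 and 13114, and the other 10 summed to 15428, 209 and 717. All 3 leukocyte markers were under 40 throughout, with Ptprc at 1, 2 and 7. Of the endothelial markers, Pecam1 read 4, 4 and 2, but Cdh5 read 268, 6 and 22 and Kdr 59, 28 and 30. All 3 fibroblast markers were highest in fresh MuSC and next highest with OSM, with Dcn at 12179, 32 and 373 and Col1a1 at 1037, 53 and 164. The β-actin ratio moved with the comparisons against fresh MuSC, and the Gapdh ratio and these markers with all 3 comparisons. The part of RNA quality and of these markers in the results was not tested. In these bulk RNA samples, fewer cycling cells and less RNA per cycling cell cannot be told apart.

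Most replication genes read above 40 before culture: 28 of the 32 were above 40 in fresh MuSC, and 31 in each cultured sample. Of all probe sets used, 56.8%, 47.3% and 45.9% were above 40 on the fresh, -OSM and +OSM arrays. Each member is counted by its probe set of highest mean signal, so the shares are not like for like. Tyms, thymidylate synthase, which makes the thymidine nucleotide, read 32, 32 and 16 and was measured in no comparison. In MuSC -OSM over fresh MuSC, 6 of the 31 measured members (19.4%) were at least 2-fold higher, namely Mcm5, Gins2, Rrm1, Rrm2, Tk1 and Fen1, and 0 were at least 2-fold lower. Over all 12755 genes measured, 15.0% were at least 2-fold higher and 20.4% at least 2-fold lower, so the members' share of higher genes lay near that of the array as a whole. With arrays centred on their medians it was 14 of 31 (45.2%), against 28.2% of all genes, with Prim2 counted by another probe set. Their median log2 ratio was 0.39, against -0.14 over all genes, and the middle 50% of members ran from -0.42 to 0.85. At 1.5-fold, 12 members were higher and 2 lower, with 24.3% and 31.8% of all genes.

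With OSM the members differed little from untreated culture. In MuSC +OSM over MuSC -OSM, 29 of 31 stayed within 2-fold, 0 were at least 2-fold higher, and 2 (6.45%), Gins2 and Pola2, were at least 2-fold lower. Of the 11271 genes measured, 6.07% were at least 2-fold higher and 4.39% at least 2-fold lower, so these counts too lay near those of all genes. The members' median log2 ratio was -0.15 and that of all genes -0.01, with 19 members below 0 and 12 above. At 1.5-fold, 6 members were lower (Gins2, Pola2, Tk1, Rrm1, Pola1 and Mcm3) and 0 higher, against 13.1% and 14.6% of all genes. At 3-fold, 0 members passed either way, where 1.21% of all genes were lower and 2.26% higher. The comparisons share the MuSC -OSM array, so a high or low value there enters both with opposite sign.

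**Figure D1:**
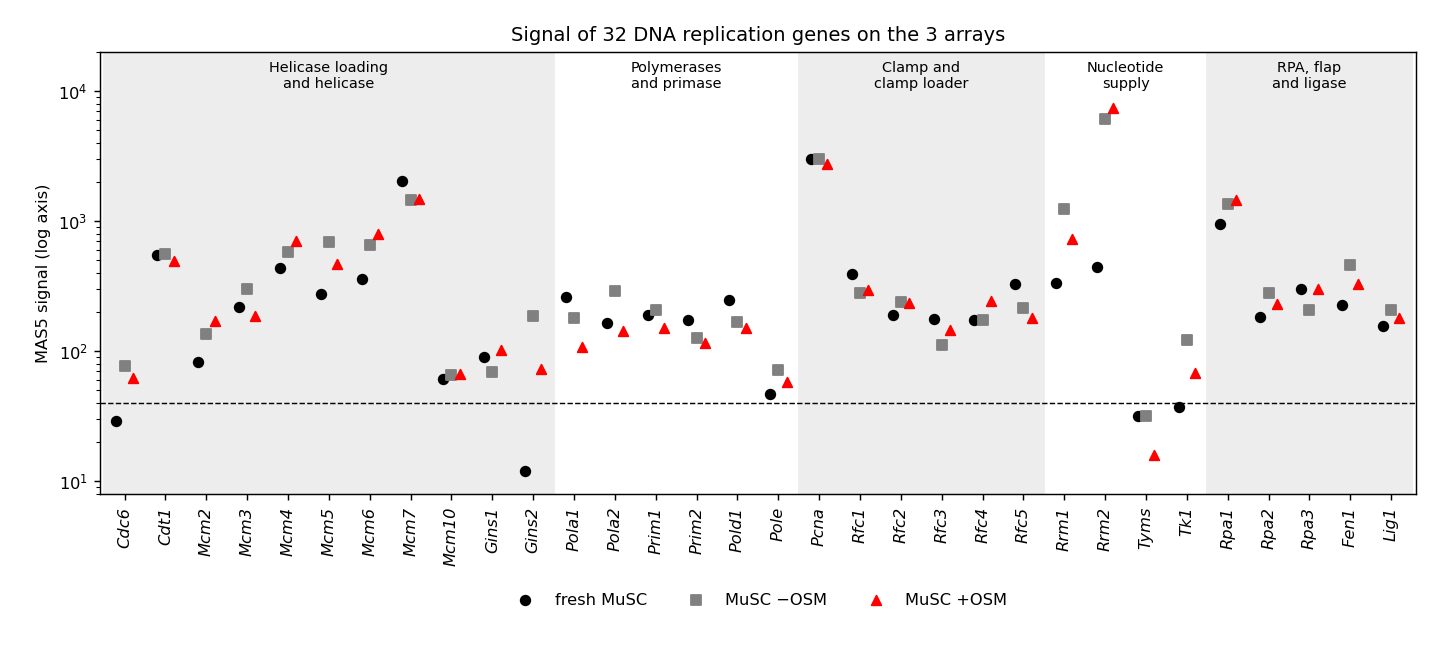
Signal of each of the 32 DNA replication genes on the fresh, MuSC -OSM and MuSC +OSM arrays (log axis, arbitrary units), with 1 point per array and the floor of 40 as a dashed line. The points of most genes lie close together, whereas those of Rrm2 run from 441 to 7369, and Tyms lies under the floor on all 3 arrays.

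Among the roles, nucleotide supply had the highest median ratio over fresh MuSC in both cultures, from 3 measured genes. Rrm2, the regulated small subunit of ribonucleotide reductase, which turns ribonucleotides into deoxyribonucleotides, read 441 on the fresh array, 6119 without OSM and 7369 with OSM. Both cultured arrays lay far above the fresh one, 13.9-fold and 16.7-fold, and the OSM-treated array lay 1.20-fold above the untreated. Rrm2 ranked 128 from the top of the 12755 genes measured in MuSC -OSM over fresh MuSC, and 37 from the top of 12483 in MuSC +OSM over fresh MuSC.

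Rrm1, the large subunit of the same enzyme, read 334, 1248 and 730 on the fresh, -OSM and +OSM arrays. It was 3.74-fold higher in MuSC -OSM than in fresh MuSC, and in MuSC +OSM it lay between, 1.71-fold below the untreated culture and 2.19-fold above fresh cells. With OSM the log2 ratios were thus -0.77 for Rrm1 and 0.27 for Rrm2, both under 2-fold. Other measured probe sets had the same signs, at -0.26 for Rrm1 and at 0.65 and 0.08 for Rrm2. The size of the gap therefore depended on the probe set. Tk1, the cytosolic thymidine kinase of the salvage route, read 37, 123 and 68. The fresh signal was under the floor, so the untreated culture was higher by at least 3.08-fold, and the OSM-treated one lay 1.81-fold below it. All 3 measured genes of this role were therefore at least 2-fold higher in culture without OSM, with a median log2 ratio of 1.90. With OSM the median was -0.77 and 0 of the 3 passed 2-fold.

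Among helicase genes the MCM ring did not move as a block. Mcm5, a ring subunit, read 274 on the fresh array, 693 without OSM and 468 with OSM. This was 2.53-fold above fresh cells in the untreated culture and 1.48-fold lower with OSM than without. Mcm6 read 358, 656 and 795, and Mcm2 read 83, 136 and 172. Both were highest with OSM, at 2.22-fold and 2.07-fold above fresh, and under 2-fold above fresh without OSM, at 1.83-fold and 1.64-fold. Mcm4 had the same order of arrays at 440, 575 and 706, with no ratio reaching 2-fold. Mcm3 read 218, 302 and 186, so the OSM-treated signal was 1.62-fold below the untreated one and also below the fresh one, although the latter turned to a log2 ratio of 0.45 with centred arrays and was 0.42 and 0.66 by other probe sets. Mcm7 was highest in fresh MuSC, at 2031, 1458 and 1489, an order that turned under another scaling. Hence in MuSC +OSM over MuSC -OSM the 6 ring genes ran from -0.70 for Mcm3 to 0.34 for Mcm2 on the log2 scale, with 4 above 0 and 2 below. Other probe sets of Mcm7 (-0.34, -0.37 and -0.28) and Mcm2 (-0.52) were below 0, and by the median over probe sets Mcm7 was at -0.31 and Mcm2 at -0.09.

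The loading factors and GINS differed as widely. Cdc6, the loader that is made anew when cells leave quiescence, read 29, 77 and 62, which is at least 1.93-fold higher in MuSC -OSM than in fresh MuSC and 1.24-fold lower with OSM. Cdt1, its partner in loading, read 549, 563 and 494 and differed little between arrays. Mcm10, which acts when the helicase is switched on, was flat at 61, 66 and 67. Gins2, a subunit of the 4-member GINS complex, read 12, 187 and 73, at least 4.68-fold higher in MuSC -OSM than in fresh MuSC and 2.56-fold lower with OSM. It was the lowest member in MuSC +OSM over MuSC -OSM, 215 from the bottom of 11271 genes. Gins1, of the same complex, was lowest in the untreated culture, at 90, 69 and 103. Of the 11 genes of this role, 9 were above 0 in MuSC -OSM over fresh MuSC, with a median log2 ratio of 0.47 and 2 at least 2-fold higher. With OSM the median was 0.02, with 1 gene at least 2-fold lower.

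The calls for Gins2 rested on the choice of probe set. Its other probe set read 55, 35 and 24, a log2 ratio of -0.46 between untreated culture and fresh cells. It was under the floor in both cultures and gave no ratio for OSM. For Rrm2 the other probe sets, at 159, 1822 and 2864 and at 289, 5429 and 5757, had the same order as the main one. Rrm1 did too at 181, 479 and 400, and Mcm5 at 38, 166 and 93. Mcm2's other probe set, at 45, 156 and 109, placed the untreated culture highest, unlike its main one.

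**Figure D2:**
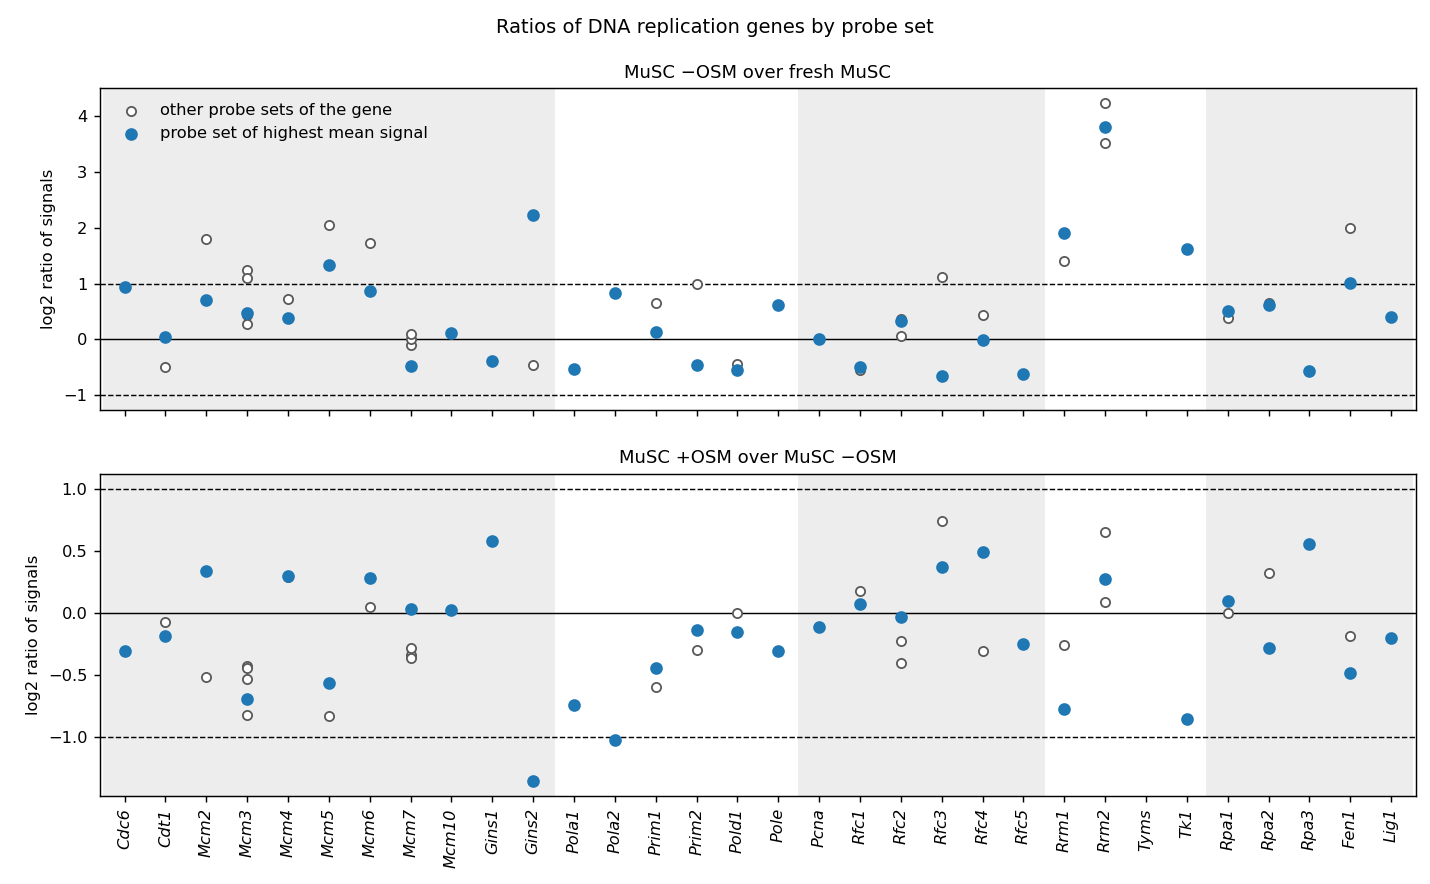
Log2 ratio of signals for each measured replication gene, grouped by role, in MuSC -OSM over fresh MuSC and in MuSC +OSM over MuSC -OSM. Dashed lines mark 2-fold. Filled points are the probe sets of highest mean signal, and open points are other probe sets of the gene. The 6 filled points above the upper line in MuSC -OSM over fresh MuSC are Mcm5, Gins2, Rrm1, Rrm2, Tk1 and Fen1. The 2 below the lower line in MuSC +OSM over MuSC -OSM are Gins2 and Pola2.

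By their chosen probe sets, polymerase genes all read lower with OSM. Pola2, the regulatory subunit of polymerase α, read 165 on the fresh array, 293 without OSM and 144 with OSM. The OSM-treated array was the lowest, 2.03-fold below the untreated one, which was 1.78-fold above fresh. Pola1, the catalytic subunit, read 260, 181 and 108. It stepped down across the arrays, with MuSC +OSM 1.68-fold below MuSC -OSM and 2.41-fold below fresh MuSC, the only member at least 2-fold lower than in fresh cells. Primase subunits were closer together, Prim1 at 189, 207 and 152 and Prim2 at 175, 127 and 115. Pold1, the catalytic subunit of the lagging-strand polymerase δ, read 248, 169 and 152. Pole, that of the leading-strand polymerase ε, read 47, 72 and 58. By these probe sets all 6 genes read lower with OSM than without, with log2 ratios from -1.02 to -0.14 and a median of -0.38. Each kept this direction under median centring and under quantile normalization. Other measured probe sets of Prim1 (-0.60) and Prim2 (-0.30) were also below 0, but that of Pold1, at 119, 88 and 88, was at 0. Only Pola2 passed 2-fold, and with arrays centred on their medians its ratio was -0.90. Against fresh MuSC, culture without OSM gave a median of -0.17 with 0 genes past 2-fold. It was 0.16 after quantile normalization and 0.84 with arrays centred on their medians. Probe sets were chosen anew on rescaled arrays. With centring Prim2 took another probe set, at a log2 ratio of 1.55 against 0.99 unscaled. The 0.84 thus mixes the scaling with a change of probe set. Pola1, Prim2 and Pold1 were below fresh cells in MuSC -OSM as reported. Each turned direction with centring, Prim2 on another probe set.

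Clamp and clamp loader genes stayed within 2-fold. Pcna, the clamp that tethers the polymerases, read 2990, 2992 and 2761, a log2 ratio of 0.00 between untreated culture and fresh cells and 1.08-fold less with OSM. Rfc1, the large loader subunit, read 395, 280 and 294. Of the small subunits, Rfc2 read 190, 239 and 234, and Rfc4 read 174, 173 and 243. Rfc3, at 176, 112 and 145, and Rfc5, at 328, 214 and 180, were highest in fresh cells. As reported, 0 of the 6 reached 2-fold in any of the 3 comparisons. The median log2 ratio was -0.25 in MuSC -OSM over fresh MuSC, which became 0.31 after centring, and 0.02 with OSM. A second probe set of Rfc3 read 29, 87 and 145, the reverse order of fresh and cultured cells. That of Rfc4 read 93, 126 and 102, a log2 ratio of -0.30 with OSM against 0.49 by the chosen one.

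Fen1, the nuclease that trims the flaps of Okazaki fragments, read 227, 459 and 328 and was 2.02-fold higher in MuSC -OSM than in fresh MuSC, just past 2-fold. With OSM it was 1.40-fold lower. Lig1, the ligase that seals the trimmed fragments, read 156, 207 and 180, the same order with smaller steps. By their chosen probe sets, the subunits of RPA, which coats single-stranded DNA, did not share an order. Rpa1 read 951, 1350 and 1445, Rpa2 read 183, 282 and 232, and Rpa3 read 304, 206 and 303. Other probe sets read 556, 727 and 724 for Rpa1 and 70, 110 and 137 for Rpa2. The order of the cultured arrays thus depended on the probe set for both genes. The median log2 ratio of these 5 genes was 0.51 in MuSC -OSM over fresh MuSC and -0.20 with OSM.

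In MuSC +OSM over fresh MuSC, 4 of 31 members were at least 2-fold higher (Mcm2, Mcm6, Rrm1 and Rrm2) and 1 at least 2-fold lower (Pola1), where 13.8% and 17.2% of the 12483 genes measured passed. Their median log2 ratio was 0.21 and that of all genes -0.14. At 1.5-fold, 10 members were higher and 4 lower, beside 23.8% and 29.6% of all genes. At 3-fold only Rrm2 was higher and 0 were lower, beside 6.08% and 8.41%. Medians by role were 1.13 for nucleotide supply, 0.63 for the helicase and 0.34 for RPA, flap and ligase genes. They were -0.20 for the clamp and loader and -0.46 for the polymerases. With arrays centred on their medians these last 2 turned to 0.49 and 0.43, the 0.43 with Prim2 on another probe set.

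Other probe sets were a partial check on the chosen ones. Of the 32 members, 25 had several single-gene probe sets, and 7 (Cdc6, Pole, Pcna, Rfc5, Tk1, Rpa3 and Lig1) had 1. Between untreated culture and fresh MuSC, 27 other probe sets of 20 genes were measured, of which 20 had the direction of the chosen one and 7 did not. They differed from the chosen one by a median of 0.49 on the log2 scale and by up to 2.68, for Gins2. Among them, 10 were at least 2-fold higher and 0 lower. Genes within 2-fold by the chosen probe set could pass by another, such as Mcm3 at 62, 147 and 83 or at 18, 86 and 63, and Mcm6 at 142, 468 and 484. For MuSC +OSM over MuSC -OSM, 18 of 26 had the same direction, the median difference was 0.26, and 0 passed 2-fold either way.

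Sequences at the promoters are shown because E2F is the factor family best known for this gene set. RefSeq promoters of the GRCm38.p6 assembly, 250 bases before to 50 after the start site, were given for 26 of the 32 genes. The words TTTCGCGC, TTTGGCGC, TTTCCCGC and TTTGCCGC, forms of the E2F motif, were searched on both strands. They occurred in 10 of the 26 genes (38.5%), against 704 of 27025 genes (2.60%) in the whole table. Of the other replication genes and mitosis genes described below, 12 of 41 (29.3%) and 1 of 16 (6.25%) held such a word. They were in 6 of 8 helicase genes, 2 of 4 polymerase genes, 1 of 5 clamp and loader genes, 0 of 4 nucleotide supply genes and 1 of 5 RPA, flap and ligase genes. Each line gives 30 bases on the strand of the gene, 5′ to 3′, with 1 match in capitals. The Rfc3 line holds a further match and the Mcm5 line an overlapping one that are not capitalized in full. The helicase genes are shown as the role with most matches, Pola1 as the polymerase gene lowest with OSM among those with a match, and Rfc3 as a match at the start site itself. Cdc6 lies at chr11:98908002-98908031 (+), Cdt1 at chr8:122568035-122568064 (+), Mcm3 at chr1:20820275-20820304 (-), Mcm5 at chr8:75109345-75109374 (+), Mcm6 at chr1:128359734-128359763 (-), Mcm7 at chr5:138171849-138171878 (-), Pola1 at chrX:93632275-93632304 (-) and Rfc3 at chr5:151651190-151651219 (-).
Cdc6: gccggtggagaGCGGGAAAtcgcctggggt
Cdt1: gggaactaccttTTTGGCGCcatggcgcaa
Mcm3: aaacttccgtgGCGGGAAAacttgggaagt
Mcm5: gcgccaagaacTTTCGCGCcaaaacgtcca
Mcm6: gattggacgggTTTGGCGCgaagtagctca
Mcm7: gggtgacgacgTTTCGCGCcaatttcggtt
Pola1: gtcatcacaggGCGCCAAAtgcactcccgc
Rfc3: ctttcgcgctcGCGGGAAAactctactgtc

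Ratios of genes with and without a match are given side by side, and a link between the words and expression was not tested. Gins2, also at least 2-fold higher in MuSC -OSM over fresh MuSC, had no promoter entry and is in neither set. The 10 genes with an E2F word had a median log2 ratio of 0.22 in MuSC -OSM over fresh MuSC, with 1, Mcm5, at least 2-fold higher. The 15 measured genes with a promoter but no match had a median of 0.51, with 4 at least 2-fold higher (Rrm1, Rrm2, Tk1 and Fen1). With OSM the medians were -0.20 and -0.12. Mcm5 and Mcm7 both hold the word TTTCGCGC, and read 274, 693 and 468 against 2031, 1458 and 1489. The word CCAAT, the NF-Y motif, was in 16 of 26 member genes (61.5%) against 41.1% of all genes, and GGGCGG, the GC box, in 18 of 26 (69.2%) against 38.2%, on either strand. Neither was particular to the members. Other replication genes held CCAAT in 22 of 41 (53.7%) and the GC box in 34 of 41 (82.9%). Mitosis genes held each of the words in 13 of 16 (81.2%). Of 16 E2F matches, 0 shared bases with a GC box and 1, in Mcm7, with CCAAT, and some E2F matches in Mcm5 and Mcm6 overlapped each other. A match describes the sequence and not binding, and a window without one can still hold a variant site.

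**Figure D3:**
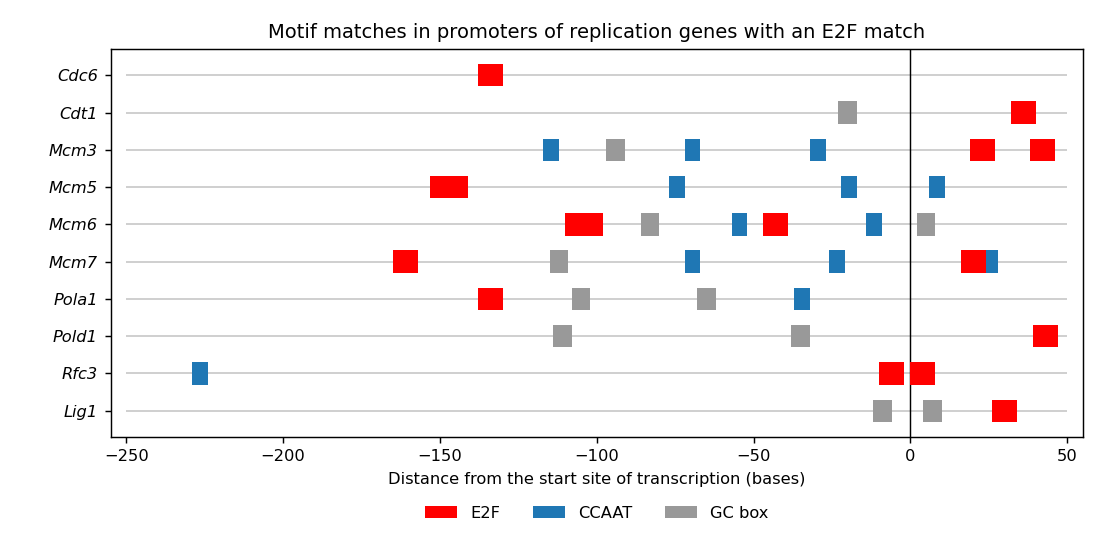
Positions of E2F words, CCAAT and GC boxes on either strand in the promoters of the 10 replication genes with an E2F match, in bases from the start site of transcription. The E2F matches lie between 165 bases before and 46 bases after the start site, at no common distance.

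Other replication genes, 47 with a probe set of 49 listed, covered origin recognition, further helicase and polymerase subunits, chromatin assembly and nucleotide metabolism. Between untreated culture and fresh MuSC, 3 of 44 measured (6.82%) were at least 2-fold higher and 5 (11.4%) lower, with a median log2 ratio of -0.09. Of all genes, 15.0% were higher and 20.4% lower. The balance turned with scaling, to 12 higher and 2 lower with arrays centred on their medians and 7 and 3 after quantile normalization. Gmnn, which encodes geminin, the inhibitor of CDT1, read 50, 240 and 201 and had a log2 ratio of 2.26. Asf1b, a histone chaperone, read 112, 272 and 299, and Dna2, a nuclease of flap processing, read 66, 132 and 85. Gins4, of the GINS complex, followed at 194, 350 and 326, under 2-fold. Shmt1, a folate enzyme that feeds thymidylate synthesis, was lowest at 1494, 144 and 192, 10.4-fold lower in MuSC -OSM. The other 4 lower genes were Timeless, Slbp (1425, 535 and 703), Mcm9 (119, 49 and 57) and Orc1 (81, 6 and 41), and the last 3 are named after their values were seen. With centred arrays Slbp, Mcm9 and Orc1 came within 2-fold, at -0.86, -0.72 and -0.60 on the log2 scale.

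With OSM, 1 of 43 other replication genes (2.33%) was at least 2-fold higher and 0 lower, against 6.07% and 4.39% of all genes. The median of the list was 0.07. The single gene was Timeless, of the complex that protects stalled forks, which read 163, 49 and 283, 5.78-fold higher with OSM. Its other probe set stayed under the floor at 2, 30 and 32. Against fresh MuSC, the OSM-treated array had 4 of 44 (9.09%) higher (Gmnn, Asf1b, Pole2 and Cdc45) and 3 (6.82%) lower (Shmt1, Slbp and Mcm9). Of all genes, 13.8% were higher and 17.2% lower. With centred arrays 16 (36.4%) were higher and 1 (2.27%) lower, against 32.5% and 8.51% of all genes. Pole2, an accessory subunit of polymerase ε, read 84, 148 and 264, and Cdc45, the helicase component, 60, 103 and 123, although another of its probe sets reversed the direction. Pole2 and Cdc45 are also named after their values were seen.

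Mitosis genes, 19 with a probe set of 20 listed, stood further above fresh MuSC in culture than the replication genes did. In MuSC -OSM over fresh MuSC, 16 of 19 (84.2%) were at least 2-fold higher and 0 lower, beside 15.0% and 20.4% of all genes. Their median log2 ratio was 1.87 against the replication genes' 0.39. Aurka, a spindle kinase, read 9, 279 and 159, at least 6.98-fold higher. Ccna2, the cyclin of S phase and G2, read 119, 746 and 459, Top2a, which untangles sister chromatids, 166, 991 and 828, and Ccnb2, a mitotic cyclin, 65, 375 and 259. Bub1b, of the spindle checkpoint, was lowest in the list at 150, 149 and 144. With OSM, 0 of 19 passed 2-fold, where 6.07% of all genes were higher and 4.39% lower. The median was -0.31, where the replication genes had -0.15. Against fresh MuSC, 15 of 19 (78.9%) stayed at least 2-fold higher with OSM, beside 13.8% of all genes, with a median of 1.48. The difference between the lists was not tested, since genes of 1 array are not replicates.

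**Figure D4:**
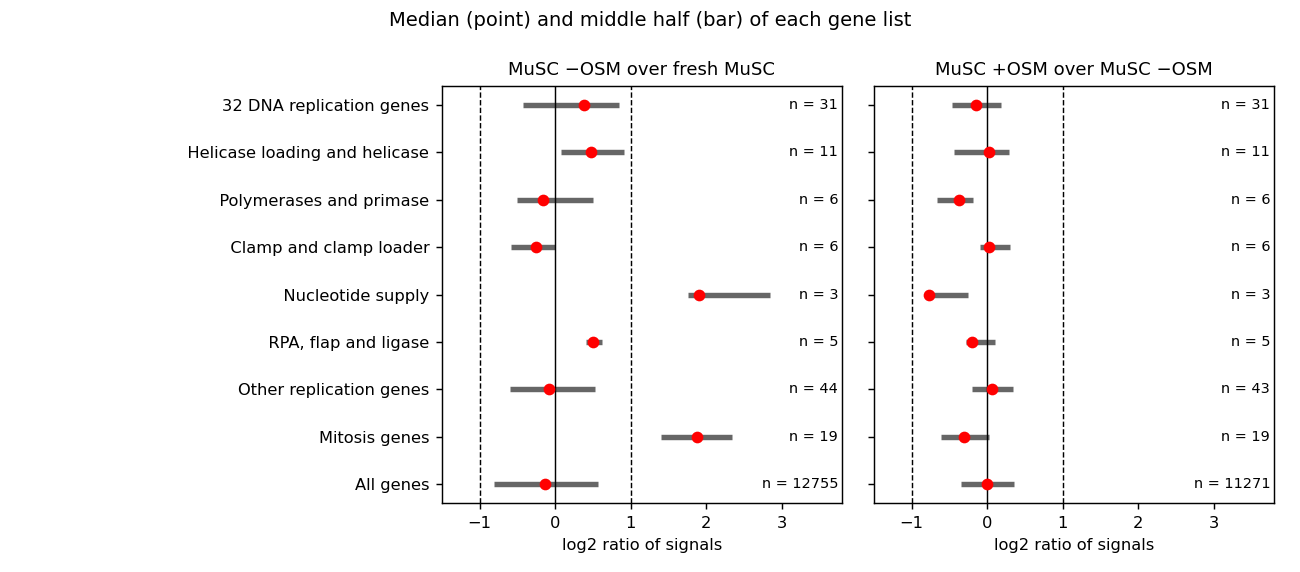
Median log2 ratio (red point) and middle 50% of genes (grey bar) for the replication genes, their 5 roles, other replication genes, mitosis genes and all genes measured, in MuSC -OSM over fresh MuSC and MuSC +OSM over MuSC -OSM, with the number of measured genes at the right of each line and 2-fold as dashed lines. Nucleotide supply and mitosis genes lie near 1.90 and 1.87 in culture, and every median with OSM lies inside 2-fold.

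The calls against fresh MuSC differed in how far they held under other processing. Rrm2, Rrm1 and Mcm5 were at least 2-fold higher in MuSC -OSM under 8 of 8 alternatives, with log2 ratios of 3.68 to 4.35, 1.65 to 2.46 and 1.34 to 2.05. Fen1 and Tk1 held under 7 of 7 alternatives that gave a value, and Gins2 under 5 of 8, from -0.46 to 3.96. With OSM over untreated culture, Gins2 held under 6 of 7, from -1.36 to -0.03, and Pola2 under 6 of 8, from -1.02 to -0.68. Pola1 in MuSC +OSM over fresh MuSC held under 6 of 8, from -1.27 to -0.51.

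**Figure D5:**
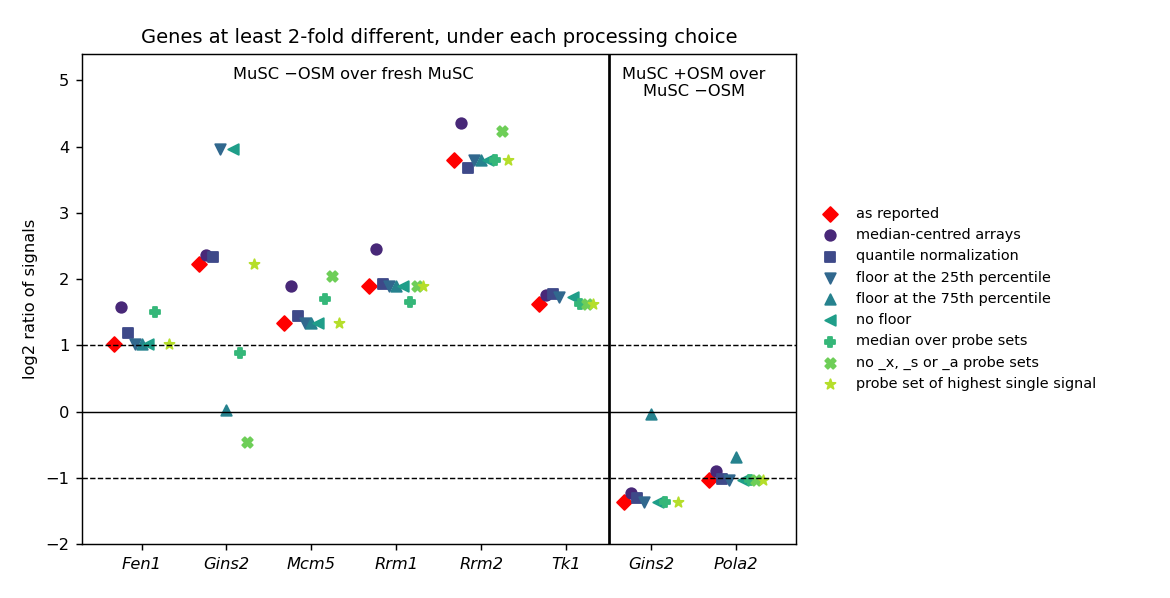
Log2 ratio of each replication gene past 2-fold, as reported and under each processing alternative, in MuSC -OSM over fresh MuSC and in MuSC +OSM over MuSC -OSM, with 2-fold as dashed lines. Rrm2, Rrm1 and Mcm5 stay beyond the line under every alternative shown, and Gins2 spreads from -0.46 to 3.96 in MuSC -OSM over fresh MuSC.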

How the data were processed

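The labels and the study's methods give 20 ng of total RNA per sample, amplified with a 3′ IVT kit and hybridized to MOE_430_2 arrays, with scans condensed by MAS5 (version not given in the sources used here). Values in the deposited table are the authors' linear MAS5 intensity signals, and the trimmed mean leaving out 2% at each end was 198 to 199 on every array. With 1 array per condition, the number of arrays limits precision and no test was possible.

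From 45101 probe sets, 64 controls were left out. Of the 45037 used, 34945 named 1 gene, 932 several and 9160 none, from the platform annotation, and only the first kind was used. Each gene took its probe set of highest mean signal, signals were raised to a floor of 40, and log2 ratios and counts at 2-fold were compared with the same counts over all measured genes. Median-centred and quantile-normalized arrays, other floors, other probe set rules and thresholds of 1.5-fold and 3-fold were alternatives. On rescaled arrays the probe set of each gene was chosen anew. The calculation was tested on simulated data. Python 3.11.15, numpy 2.4.6, pandas 2.3.3, scipy 1.17.1 and matplotlib 3.10.9 were used.

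The members and lists were chosen with earlier results of these data known. All 32 members are named. Of the other replication and mitosis lists, the genes at least 2-fold different with OSM, the 4 highest in MuSC -OSM over fresh MuSC and the lowest one are named. Promoters to print were chosen after their values were seen.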

Additional observations from a re-analysis of the deposited data

How the results depend on the processing

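Counts against fresh MuSC depended on scaling and on the threshold. In MuSC -OSM over fresh MuSC, 14 members were at least 2-fold higher with arrays centred on their medians and 10 after quantile normalization, in place of 6. These were 45.2% and 32.3% of members, against 28.2% and 19.5% of all genes at the same scaling. The centred counts against fresh MuSC hold Prim2 by another probe set. Centring moved the members' median from 0.39 to 0.97 while that of all genes moved from -0.14 to 0.37. At 1.5-fold 12 were higher and 2 lower. In MuSC +OSM over fresh MuSC, centring gave 13 higher in place of 4, 0 lower in place of 1 and a median of 0.89, where 32.5% of all genes were higher and 8.51% lower. There, 10 were higher and 4 lower at 1.5-fold, 1 and 0 at 3-fold, 2 were lower with the floor at the 25th percentile (11) or with no floor, and 0 with it at the 75th (183). In MuSC +OSM over MuSC -OSM, where 2 were lower, the count was 1 with centring, 1 without probe sets that can bind several transcripts, 0 with the high floor, 6 at 1.5-fold and 0 at 3-fold. Relative to all genes, the members' median was 0.52, 0.59 and 0.51 in MuSC -OSM over fresh MuSC as reported, centred and quantile-normalized, and -0.15, -0.17 and -0.18 with OSM.

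Among all called genes, the share that was higher in MuSC -OSM over fresh MuSC went from 42.4% to 70.2% with centring and 53.4% with quantile normalization. In MuSC +OSM over MuSC -OSM it went from 58.0% to 68.6% and 54.2%, and in MuSC +OSM over fresh MuSC from 44.5% to 79.3% and 54.8%. Direction turned between the 3 scalings for 8 of 31 members in MuSC -OSM over fresh MuSC (Mcm7, Gins1, Pola1, Prim2, Pold1, Pcna, Rfc1 and Rfc4), for 2, Pcna and Rfc2, with OSM, and for 10 in MuSC +OSM over fresh MuSC (Cdt1, Mcm3, Mcm7, Pola2, Prim1, Prim2, Pcna, Rfc1, Rfc3 and Rpa3). For Prim2 the turn came with a change of probe set under centring. Gins2 in MuSC -OSM over fresh MuSC reversed to -0.46 without probe sets that can bind several transcripts. Cdc45 in MuSC +OSM over fresh MuSC reversed to -0.26 by the median over its probe sets and to -1.56 by the probe set of highest single signal. No paired analysis was possible because each condition is 1 array, and no replicate could be left out. Signals near the floor, as for Cdc6, Tk1 and Gins2 in fresh MuSC, limit their ratios to bounds.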
